A study of Danio rerio with 16 samples.

Results

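The leptin, gp130, STAT3 and SOCS3 axis was followed through 10 zebrafish genes. These were the ligand gene lepb, the receptor genes lepr and il6st, the transcription factor gene stat3, the feedback inhibitor genes socs3a, socs3b, socs1a and cish, and the kinase genes pim1 and pim2. They were taken by their symbols from the gene count tables, where each symbol matched 1 of 31452 genes, and all 10 passed the filter on low counts that left 21650 genes for testing.

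The study asked how an excess of insulin in the circulation alters gene expression in the intact animal, and its title links this to insulin resistance and immune suppression. Every library held RNA of 10 pooled whole embryos of the ABTL background, which at an age of 4 days post fertilization (dpf) had received 1 nl of fluid into the caudal aorta. The fluid was human recombinant insulin or, in the controls, phosphate-buffered saline (PBS). Embryos were collected at 0.5 or 4 hours post injection (hpi), which gave 4 groups of 4 libraries: PBS at 0.5 hpi, insulin at 0.5 hpi, PBS at 4 hpi and insulin at 4 hpi. The controls had thus been injected too, no uninjected embryos were analysed here, and the labels do not give the insulin dose. They also do not say whether the pools came from separate clutches, so p-values measure the spread between these pools, which may be technical. In RNA of whole embryos, fewer cells of a type and less RNA per cell cannot be told apart.

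Leptin is a helical cytokine that in mammals signals body fat stores to the brain and in fish is made in several tissues. Its receptor, and the gp130 chain shared by the interleukin-6 family of cytokines, have no kinase of their own and work through bound Janus kinases (JAKs), which phosphorylate STAT3. Phosphorylated STAT3 enters the nucleus and switches on genes that include its own inhibitors, the suppressor of cytokine signalling (SOCS) proteins, and SOCS3 in mammals also restrains the insulin receptor. Transcript counts do not measure phosphorylated STAT3.

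Library totals lay between 6535173 and 9628705 reads. In 4 libraries, replicate 1 of PBS and replicates 1 and 2 of insulin at 0.5 hpi and replicate 1 of insulin at 4 hpi, the genes wdr90 and si:dkey-15h8.1 were both under 10 CPM (reads scaled to a common library size), against at least 32.1 and 94.1 CPM in the other 12. These 4 libraries stood apart from the rest, and their summed erythroid marker genes reached 5222 to 7390 CPM against 1916 to 3178 CPM in the other 12. Replicates 2 and 3 of PBS at 0.5 hpi were nearly identical: 89 of 20557 genes (0.433%) differed beyond sampling noise, against 747 to 9565 genes in the other pairs of libraries within a group. They were kept as separate libraries. Results with the pair summed are given for counts of called genes, for pim1 and pim2 at 0.5 hpi and for il6st. The other values use the pair as separate libraries. Of the 4 libraries that stand apart 3 were of the groups at 0.5 hpi, as was the pair.

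Levels below are CPM over library sizes scaled with TMM factors, each listed for replicates 1 to 4 and then as mean ± SD over the 4 libraries. CPM does not correct for gene length, so levels are compared between groups and not between genes. A change is a log2 ratio and its standard error (SE) comes from edgeR's quasi-likelihood model. A gene was called where the p adjusted by Benjamini-Hochberg over the 21650 genes was under 0.05.

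At 4 hpi, 7 of the 10 genes were called lower after insulin than after PBS and none was called higher. These were the ligand lepb, both receptors lepr and il6st, both SOCS3 paralogs and both pim kinases, while stat3, socs1a and cish were not called. Of all genes, 28.6% were called at this time and 14.6% were called lower. The 10 genes were chosen with earlier results of these data known, so their share is no independent test. In each of the 7 every insulin library lay below every PBS library, which was so for 17.2% of all genes. The median change of the 10 genes was -0.79 on the log2 scale, beside 0.01 over all genes. The 7 calls were all made again after leaving out any 1 of the 8 libraries of this comparison, and none of these 7 was lost in the 12 libraries left without those that stand apart. At 0.5 hpi, pim1 and pim2 were called lower and the other 8 genes were not called, where 0.388% of all genes were called and 0.222% were called lower. In both pim genes the insulin libraries lay below all PBS libraries, as in 2.91% of all genes. The median change of the 10 genes at 0.5 hpi was -0.52, beside 0.02 over all genes.

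**Figure D1:**
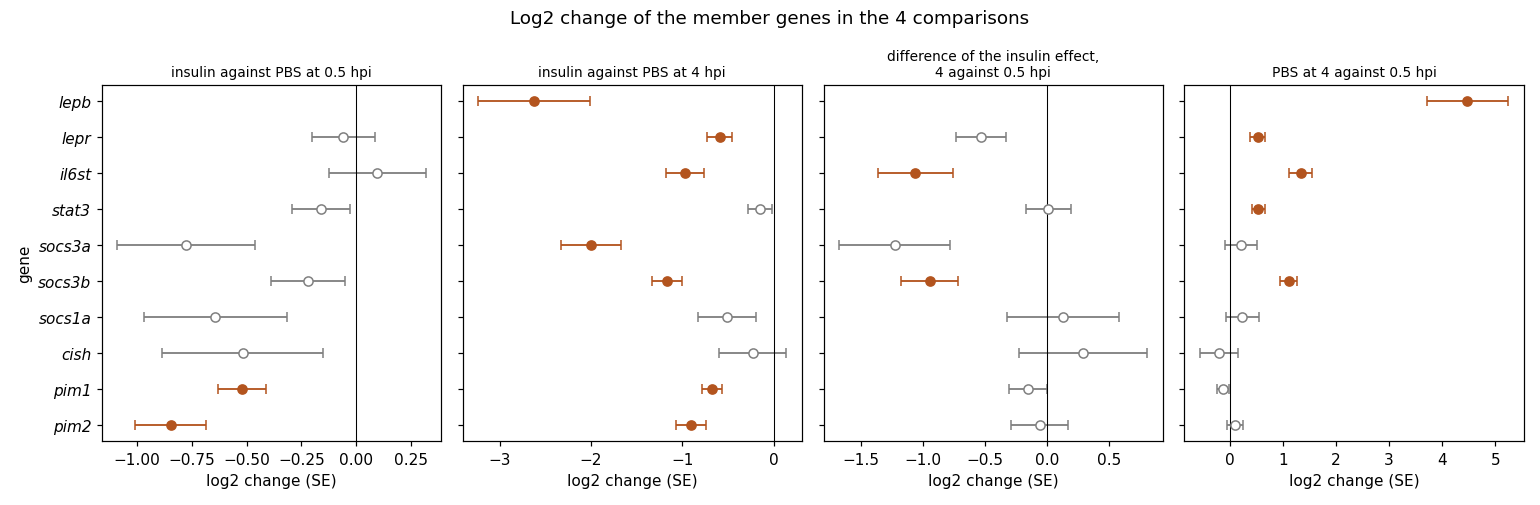
Log2 change of each gene with its SE in the 4 comparisons, with filled symbols for an adjusted p under 0.05; the horizontal scales differ between panels, and lepb is left out at 0.5 hpi and in the difference between times, where its counts are near 0. The 7 filled symbols at 4 hpi run from -2.63 for lepb to -0.59 for lepr, while at 0.5 hpi pim1 and pim2 are the filled ones.

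The PBS libraries themselves differed between the times. The headers name lane 2 for replicates 2 and 3 of PBS at 0.5 hpi. They name lane 5 for replicates 2, 3 and 4 of PBS at 4 hpi. Between these libraries lane and time cannot be told apart. Among the insulin libraries at 0.5 hpi a lane is named for replicate 1 alone, lane 6. Between it and the PBS libraries of lane 2, lane and injection cannot be told apart either. From 0.5 to 4 hpi after PBS, 5 of the 10 genes were called higher (lepb, lepr, il6st, stat3 and socs3b) and none was called lower, beside 13.6% of all genes called and 7.96% called higher. In all 5 the PBS libraries at 4 hpi lay above those at 0.5 hpi, as in 11.2% of all genes. The PBS libraries at 4 hpi enter both this comparison and that of insulin with PBS at 4 hpi, so the results of both comparisons are not independent. The effect of insulin itself differed between the times for il6st and socs3b, the 2 genes called in the interaction contrast, beside 9.59% of all genes called and 5.76% called lower. Without the 4 libraries that stand apart, neither of these 2 was called, as given with each gene.

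**Figure D2:**
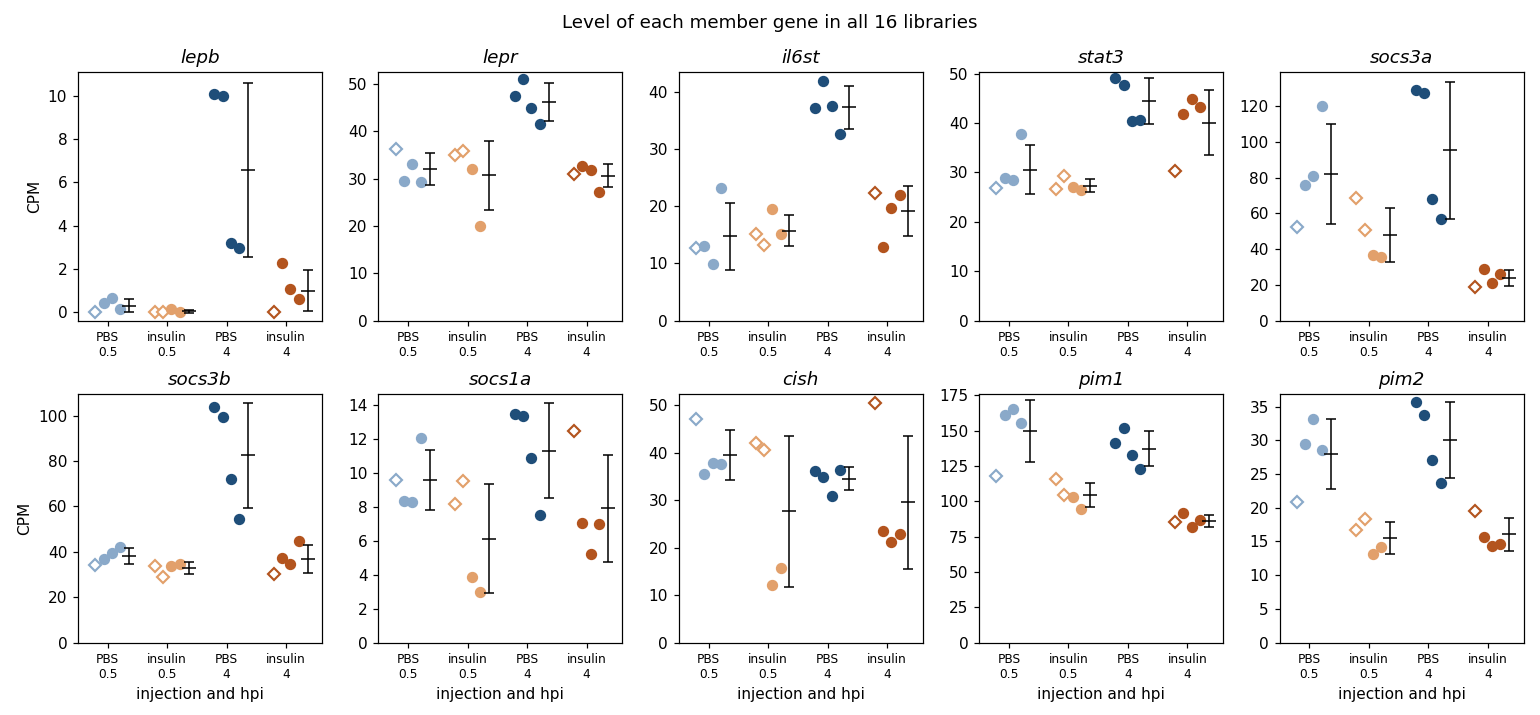
CPM of each gene in each of the 16 libraries, by group, with a black bar for the mean ± SD and open diamonds for the 4 libraries that stand apart; each panel has its own vertical scale. For lepb, il6st and socs3b the PBS libraries at 4 hpi lie above those of the other 3 groups, and for pim1 and pim2 the insulin libraries lie below the PBS libraries at both times.

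The ligand gene lepb (ENSDARG00000045548, chromosome 4), one of the zebrafish leptin genes, was close to absent at 0.5 hpi. After PBS at 0.5 hpi it had 0, 3, 5 and 1 reads, or 0, 0.404, 0.658 and 0.120 CPM (0.295 ± 0.295 CPM, n = 4). After insulin at 0.5 hpi it had 0 reads in 3 libraries and 1 read in replicate 3, which was 0.117 CPM. A count of 0 allows up to 0.338 to 0.376 CPM in the libraries of this time, by 3 counts of the library size, so no fold is given between the groups at 0.5 hpi. These limits cover counting error only.

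At 4 hpi lepb was the gene of the axis with the widest change. After PBS it had 76, 98, 29 and 25 reads, or 10.1, 9.99, 3.19 and 2.97 CPM (6.56 ± 4.02 CPM). After insulin it had 0, 21, 8 and 4 reads, or 0, 2.27, 1.07 and 0.618 CPM (0.990 ± 0.962 CPM). Replicates 1 and 2 of PBS were far above replicates 3 and 4, and the highest insulin library was still below the lowest PBS library. The change with insulin was -2.63 (SE 0.61, adjusted p = 0.00477), and the PBS mean was 6.63-fold that of insulin. Leaving out 1 library moved it between -2.22, without replicate 1 of insulin, and -3.51, without replicate 2 of insulin. In PBS embryos lepb rose by 4.47 from 0.5 to 4 hpi (SE 0.77, adjusted p = 0.00129), a 22.2-fold higher mean against a group with 9 reads in all. Leaving out 1 library moved this between 4.02, without replicate 1 of PBS at 0.5 hpi, and 5.201, without replicate 3 of that group. The difference of the insulin effect between the times could not be resolved for lepb, because its 95% interval ran from -5.24 to 6.40. The insulin library without a lepb read at 4 hpi is one of the libraries that stand apart, and in the 12 other libraries the change at 4 hpi was -2.20 (adjusted p = 0.0210).

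The paralog lepa, the other leptin gene of zebrafish, was low in all groups and was not called in any comparison. Its means were 1.12 CPM after PBS and 0.149 CPM after insulin at 0.5 hpi, and 1.33 CPM after PBS and 0.445 CPM after insulin at 4 hpi. Its change with insulin at 4 hpi was -1.58 (SE 0.82, adjusted p = 0.149).

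The leptin receptor gene lepr (ENSDARG00000070961, chromosome 6) had 36.3, 29.5, 33.0 and 29.2 CPM after PBS at 0.5 hpi (32.0 ± 3.35 CPM). It had 34.9, 35.9, 32.0 and 20.1 CPM after insulin at that time (30.7 ± 7.28 CPM). These groups overlapped, and the change was -0.06 with an interval of -0.36 to 0.24. At 4 hpi the PBS libraries had 47.6, 51.1, 45.0 and 41.5 CPM (46.3 ± 4.04 CPM) and the insulin libraries 31.1, 32.6, 31.8 and 27.2 CPM (30.7 ± 2.41 CPM). The insulin libraries at 4 hpi overlapped both groups at 0.5 hpi, and the PBS libraries at 4 hpi were above all others. The gene was lower after insulin at 4 hpi by a log2 change of -0.59 (SE 0.14, adjusted p = 0.00435). In PBS embryos it rose by 0.53 between the times (SE 0.14, adjusted p = 0.0159), a call that was lost without replicate 2 of PBS at 0.5 hpi (adjusted p = 0.0555) or replicate 2 of PBS at 4 hpi (adjusted p = 0.0620). The difference of the insulin effect between the times was -0.53 and was not called (adjusted p = 0.0979).

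The gene il6st (ENSDARG00000030498, chromosome 10) encodes gp130, the signalling chain that receptors for interleukin-6, interleukin-11, LIF and related cytokines share. It had 12.6, 13.1, 9.87 and 23.2 CPM after PBS (14.7 ± 5.85 CPM) and 15.2, 13.1, 19.5 and 15.1 CPM after insulin (15.7 ± 2.70 CPM) at 0.5 hpi. The values at 4 hpi were 37.1, 41.8, 37.5 and 32.6 CPM after PBS (37.2 ± 3.76 CPM) and 22.3, 12.9, 19.6 and 21.9 CPM after insulin (19.2 ± 4.35 CPM). The PBS libraries at 4 hpi were above all 12 others, while the insulin libraries at 4 hpi overlapped both groups at 0.5 hpi. The change with insulin at 4 hpi was -0.97 (SE 0.21, adjusted p = 0.00249), and at 0.5 hpi it was 0.10 with an interval of -0.37 to 0.56. In PBS embryos il6st rose by 1.34 over time (SE 0.21, adjusted p = 0.000554), to a 2.54-fold higher mean.

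The effect of insulin on il6st was lower at 4 than at 0.5 hpi by -1.06 (SE 0.30, adjusted p = 0.0331). This difference was close to the threshold. It was called in 6 of the 16 fits that each left out 1 library, with values from -1.36 to -0.90 and adjusted p up to 0.0722. It was not called with the near-identical pair summed (adjusted p = 0.0599) or without the 4 libraries that stand apart, where it was -1.20 (adjusted p = 0.0927).

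The transcription factor gene stat3 (ENSDARG00000022712, chromosome 3) was called over time in PBS embryos and was not called with insulin at either time. After PBS it had 26.9, 28.9, 28.4 and 37.9 CPM at 0.5 hpi (30.5 ± 4.97 CPM) and 49.2, 47.8, 40.4 and 40.6 CPM at 4 hpi (44.5 ± 4.68 CPM). After insulin it had 26.7, 29.2, 27.0 and 26.4 CPM at 0.5 hpi (27.3 ± 1.30 CPM) and 30.3, 41.9, 44.9 and 43.3 CPM at 4 hpi (40.1 ± 6.64 CPM). In PBS embryos it rose by 0.54 between the times (SE 0.13, adjusted p = 0.00854). The change with insulin at 4 hpi was -0.15 with a 95% interval of -0.42 to 0.12 (adjusted p = 0.393). At 0.5 hpi it was -0.16 (interval -0.43 to 0.11), and the difference between the times was 0.01 (interval -0.37 to 0.39). The lowest insulin library at 4 hpi was replicate 1, one of those that stand apart. Without those libraries the change at 4 hpi was -0.03.

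The feedback inhibitor gene socs3a (ENSDARG00000025428, chromosome 3), one of 2 zebrafish counterparts of SOCS3, had the widest change with insulin after lepb. At 4 hpi it had 129, 127, 68.2 and 56.7 CPM after PBS (95.3 ± 38.2 CPM) and 18.9, 28.7, 21.1 and 26.1 CPM after insulin (23.7 ± 4.51 CPM). The lowest PBS library was well above the highest insulin library, and within PBS replicates 1 and 2 were above replicates 3 and 4. The change was -2.01 (SE 0.33, adjusted p = 0.000625), a 4.02-fold higher mean after PBS. At 0.5 hpi socs3a had 52.2, 75.8, 80.8 and 119.9 CPM after PBS (82.2 ± 28.1 CPM) and 68.5, 50.8, 36.8 and 35.8 CPM after insulin (48.0 ± 15.3 CPM). These groups overlapped, and the change of -0.78 was not called (SE 0.31, adjusted p = 0.299). The PBS groups at both times also overlapped, with a change of 0.21 between them (adjusted p = 0.682). The difference of the insulin effect between the times was -1.23 (SE 0.45) and was not called (adjusted p = 0.102).

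The paralog socs3b (ENSDARG00000026611, chromosome 12) had another pattern over the groups. It had 34.2, 36.9, 39.5 and 42.3 CPM after PBS (38.2 ± 3.50 CPM) and 33.9, 28.8, 33.8 and 34.7 CPM after insulin (32.8 ± 2.71 CPM) at 0.5 hpi. At 4 hpi it had 104, 99.4, 72.1 and 54.6 CPM after PBS (82.5 ± 23.3 CPM) and 30.0, 37.5, 34.5 and 45.0 CPM after insulin (36.7 ± 6.27 CPM). All 4 PBS libraries at 4 hpi were above all 12 others, and the other 3 groups overlapped. Insulin at 4 hpi was lower by a log2 change of -1.17 (SE 0.16, adjusted p = 5.55e-05), a 2.25-fold higher mean after PBS. In PBS embryos socs3b rose by 1.11 over time (SE 0.16, adjusted p = 0.000258), to a 2.16-fold higher mean. At 0.5 hpi the change with insulin was -0.22 (interval -0.57 to 0.13), and the difference between the times was -0.95 (SE 0.23, adjusted p = 0.0149). That difference was called in all 16 fits that left out 1 library each. Without the 4 libraries that stand apart it was -0.85 and was not called (adjusted p = 0.132).

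The 2 SOCS3 paralogs thus shared a lower level after insulin at 4 hpi. They differed in the PBS embryos, where socs3b was called higher at 4 than at 0.5 hpi and socs3a was not, although whether the paralogs differ from each other in this was not tested.

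The inhibitor genes socs1a (ENSDARG00000038095, chromosome 3), whose mammalian counterpart blocks JAKs directly, and cish (ENSDARG00000060316, chromosome 6), in mammals a feedback inhibitor and target of STAT5, were not called in any of the 4 comparisons. At 0.5 hpi socs1a had 9.58, 8.34, 8.29 and 12.03 CPM after PBS and 8.14, 9.52, 3.86 and 2.97 CPM after insulin. By 4 hpi socs1a had 13.4, 13.4, 10.9 and 7.50 CPM after PBS and 12.5, 7.04, 5.19 and 6.95 CPM after insulin. In the insulin groups the libraries that stand apart were the high ones at both times. The changes with insulin were -0.64 at 0.5 hpi (adjusted p = 0.421) and -0.51 at 4 hpi (adjusted p = 0.230).

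The split was plainer in cish. At 0.5 hpi cish had 47.1, 35.4, 37.9 and 37.5 CPM after PBS and 42.1, 40.6, 12.2 and 15.6 CPM after insulin. At 4 hpi it had 36.04, 34.9, 30.9 and 36.3 CPM after PBS and 50.4, 23.5, 21.2 and 22.9 CPM after insulin. In every group that holds libraries standing apart, those libraries had the highest cish values, and the other insulin libraries were below all PBS libraries of their time. Over all 16 libraries the changes with insulin were -0.52 at 0.5 hpi (SE 0.37, adjusted p = 0.603) and -0.23 at 4 hpi (SE 0.37, adjusted p = 0.672).

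Within groups, the 4 libraries that stand apart were higher than the rest by 1.07 for cish (SE 0.14, adjusted p = 3.47e-05) and by 0.78 for socs1a (SE 0.21, adjusted p = 0.0130). The other 8 genes were not called in that contrast, in which 19.5% of all genes were called. Of these 8, lepb had the widest value, at -4.94 (SE 1.90, adjusted p = 0.0890). It had no read in any of the 4 libraries that stand apart. The PBS group at 4 hpi, where lepb was highest, holds none of those libraries. In the 12 remaining libraries, the change of cish with insulin was -1.43 at 0.5 hpi (adjusted p = 3.38e-08) and -0.61 at 4 hpi (adjusted p = 5.87e-05). That of socs1a was -1.50 at 0.5 hpi (adjusted p = 0.000530) and -0.81 at 4 hpi (adjusted p = 0.00293). The 12 libraries thus gave 4 of the 10 genes lower after insulin at 0.5 hpi, where 12.9% of all genes were called and 6.54% were called lower, and 9 of 10 at 4 hpi, where 35.2% were called and 17.8% called lower. In the same libraries cish was the only gene called in the difference between the times, at 0.83 (adjusted p = 0.00132), since its change was wider at 0.5 than at 4 hpi. In that contrast 13.1% of all genes were called and 5.99% were called higher. Over time after PBS the 12 libraries gave the same 5 genes higher as all 16 did and pim1 lower, at -0.23 (adjusted p = 0.0429), where 19.6% of all genes were called, 10.4% higher and 9.12% lower. In these 12 libraries, the changes with insulin at 0.5 hpi compare insulin replicates 3 and 4 with PBS replicates 2, 3 and 4. PBS replicates 2 and 3 are the near-identical pair, and no fit of the 12 libraries with the pair summed is given here. The PBS change over time and the difference between the times in the 12 libraries hold the same pair. The erythroid marker sums given above moved with the same libraries, and their part in these values was not tested.

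**Figure D3:**
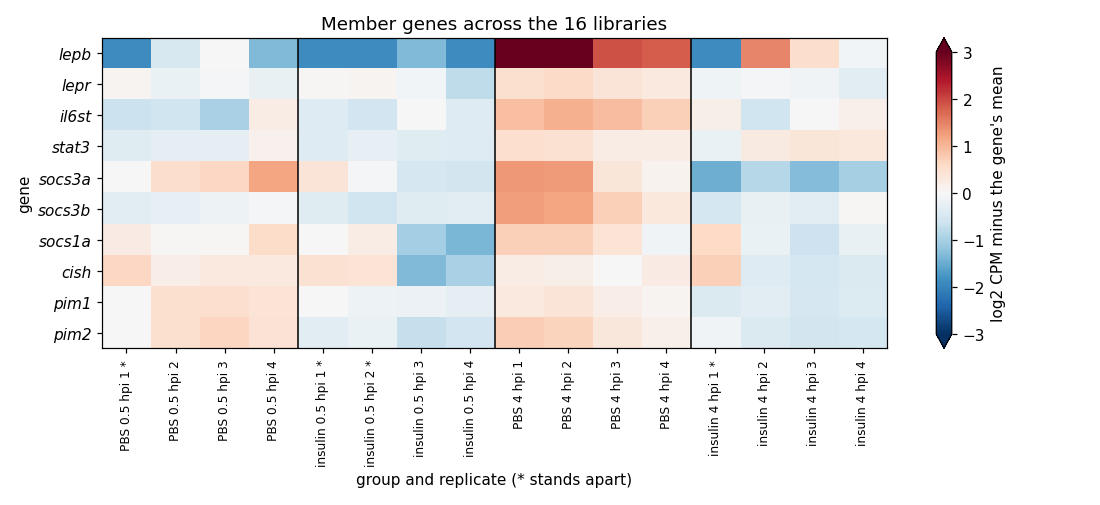
Log2 CPM of the 10 genes in the 16 libraries, each gene relative to its own mean, with an asterisk on the 4 libraries that stand apart and the colour limited to 3 log2 units in either direction. The PBS libraries at 4 hpi are above the gene mean in all 4 libraries for 9 genes and in 3 for socs1a, and in the cish row the marked libraries are the high ones of their groups.

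The kinase genes pim1 and pim2, serine and threonine kinases that STAT3 and STAT5 induce in mammals and that favour cell survival, were the genes of the axis called lower after insulin at both times in the fit of all 16 libraries. At 0.5 hpi pim1 (ENSDARG00000059120, chromosome 8) had 118, 161, 165 and 155 CPM after PBS (150 ± 21.7 CPM) and 116, 104, 103 and 94.3 CPM after insulin (104 ± 8.80 CPM). At 4 hpi pim1 had 141, 152, 133 and 123 CPM after PBS (137 ± 12.3 CPM) and 85.4, 91.4, 81.4 and 86.7 CPM after insulin (86.2 ± 4.14 CPM). The groups did not overlap at either time, though at 0.5 hpi the lowest PBS library and the highest insulin library, both replicate 1 and both among those that stand apart, were nearly level. The changes with insulin were -0.52 at 0.5 hpi (SE 0.11, adjusted p = 0.0412) and -0.67 at 4 hpi (SE 0.11, adjusted p = 0.000196).

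At 0.5 hpi pim2 (ENSDARG00000059001, chromosome 8) had 20.9, 29.5, 33.2 and 28.6 CPM after PBS (28.0 ± 5.17 CPM) and 16.7, 18.3, 13.1 and 14.1 CPM after insulin (15.6 ± 2.38 CPM). At 4 hpi it had 35.8, 33.8, 27.1 and 23.7 CPM after PBS (30.1 ± 5.68 CPM) and 19.6, 15.6, 14.4 and 14.7 CPM after insulin (16.1 ± 2.40 CPM). All insulin libraries were below all PBS libraries at both times. The changes were -0.85 at 0.5 hpi (SE 0.16, adjusted p = 0.0308) and -0.90 at 4 hpi (SE 0.16, adjusted p = 0.000496). The difference between the times was -0.15 for pim1 (interval -0.47 to 0.17) and -0.06 for pim2 (interval -0.54 to 0.42), and neither was called. Between the PBS groups the changes were -0.12 for pim1 (adjusted p = 0.463) and 0.10 for pim2 (adjusted p = 0.697).

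The calls of pim1 and pim2 at 0.5 hpi were less firm than those at 4 hpi. Both were lost without replicate 2, 3 or 4 of PBS or without replicate 3 or 4 of insulin, and pim1 was lost without replicate 2 of insulin. Both were also lost with the near-identical PBS pair summed or with only the groups compared in the fit, and pim1 was lost when libraries were scaled by their totals (adjusted p = 0.0686). The log2 changes in the fits that left out 1 library stayed between -0.64 and -0.47 for pim1 and between -0.99 and -0.76 for pim2. Without the 4 libraries that stand apart, both were called at 0.5 hpi, at -0.72 for pim1 (adjusted p = 1.73e-05) and -1.18 for pim2 (adjusted p = 1.32e-05). That fit compared insulin replicates 3 and 4 with PBS replicates 2, 3 and 4, and kept the near-identical PBS pair as separate libraries. The pim genes form a multigene family in zebrafish, the rule for reads that fit several genes is not given in the sources used here, and the split of reads between family members is therefore uncertain, as it is between socs3a and socs3b.

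Around these 10 genes, 6 lists of other cytokine pathway genes held 105 tested genes. At 4 hpi 34 of the 105 were lower after insulin and 6 were higher, so that 38.1% were called beside 28.6% of all genes, with a median change of -0.17 beside 0.01 over all genes. At 0.5 hpi edgeR called none of them, beside 0.388% of all genes. Of the 105, 26 had an unadjusted p under 0.05 (20 lower and 6 higher), and DESeq2 called 6 lower. The shares of all genes by the unadjusted p and by DESeq2 are not given here, so these counts stand without a comparison. In the difference between the times 14 were called lower and 2 higher, 15.2% beside 9.59% of all genes. In PBS embryos 26 were higher and 8 lower at 4 than at 0.5 hpi, 32.4% beside 13.6% of all genes. These shares were not tested against each other, and most lists below hold too few genes to read a share from. The lists were chosen with earlier results of these data known, so the shares are not independent of those results.

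Among the other ligands of this cytokine class, 4 of 10 tested genes were lower after insulin at 4 hpi and none was higher. Of all genes, 14.6% were called lower in this comparison. The gene il11a, coding for an interleukin-11 that signals through gp130, went from 2.44 CPM after PBS to 0.292 CPM after insulin. The change was -3.01 (SE 0.55, adjusted p = 0.000435). It rests on few reads, since il11a had 118 reads over all 16 libraries together and none in 1 of them. The gene si:dkey-117m1.3, listed as cntf in the gene name table, changed by -1.38 (adjusted p = 0.000168), and clcf1, in mammals another gp130 ligand, by -1.08 (adjusted p = 0.00853). Each of these named genes had risen in PBS embryos between the times. The rises were 2.11 for il11a (adjusted p = 0.00566), 1.39 for si:dkey-117m1.3 (adjusted p = 0.000423) and 1.13 for clcf1 (adjusted p = 0.0124). The remaining ligand lower after insulin, il15, was not called over time in PBS embryos (0.40, adjusted p = 0.0932). The list had 4 genes higher and none lower in that comparison, beside 7.96% of all genes called higher. The other of the 4 was crlf1a at 0.75 (adjusted p = 0.00946).

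Of 28 other receptor genes, 7 were lower and 1 was higher after insulin at 4 hpi, with a median of -0.09. The share called was that of all genes, 28.6%. The receptor gene lifrb, a zebrafish LIF receptor whose mammalian counterpart pairs with gp130, went from 16.98 to 6.87 CPM, a change of -1.30 (SE 0.15, adjusted p = 8.67e-06). The prolactin receptor gene prlrb changed by -1.47 (adjusted p = 0.000134) and crfb17, a gene of the cytokine receptor family b, by -1.22 (adjusted p = 0.000735). The gene higher after insulin was il13ra2 at 0.62 (adjusted p = 0.0396), in mammals a decoy receptor for interleukin-13. The effect of insulin differed between the times for lifrb, prlrb and crfb17, by -1.14, -1.33 and -1.30. These were 3 of 28 receptor genes, or 10.7% called beside 9.59% of all genes, a share near that of all genes. In PBS embryos 8 receptor genes were higher at 4 hpi and none was lower, beside 7.96% of all genes called higher. Among the 8 were lifrb at 1.30, crfb17 at 1.18 and il13ra1 at 0.92.

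The JAK genes code for the kinases that link these receptors to STAT3. Of the 5, tyk2 was lower after insulin at 4 hpi (-0.56, adjusted p = 0.0173) and the rest were not called, 1 call where 14.6% of all genes were called lower. For jak1, which serves gp130 in mammals, the change was -0.03. For jak2a and jak2b, counterparts of the kinase bound to the leptin receptor in mammals, the changes were 0.29 and -0.10. In PBS embryos jak1 rose by 0.36 (adjusted p = 0.00752) and tyk2 by 0.52 (adjusted p = 0.0402) from 0.5 to 4 hpi.

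Of 7 other STAT genes, 3 were lower after insulin at 4 hpi and none was higher, where 14.6% of all genes were called lower. The STAT5 genes stat5.1 and stat5.2, transducers of growth hormone and prolactin signals, changed by -1.06 (adjusted p = 0.00126) and -0.48 (adjusted p = 0.0175). The gene stat2, which acts in interferon signalling, changed by -0.75 (adjusted p = 0.00134). In PBS embryos stat5.1 alone was called over time, at 0.66 (adjusted p = 0.0403).

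The other inhibitors of JAK and STAT signalling did not share 1 direction, with 5 of 25 higher and 4 lower after insulin at 4 hpi, or 36% called beside 28.6% of all genes. The phosphatase gene ptpn6, which codes for SHP-1 and appears under 2 gene IDs in the tables, was higher under both IDs, at 1.56 for ENSDARG00000013916 (adjusted p = 0.00101) and 1.12 for ENSDARG00000089043 (adjusted p = 0.00975). The genes pias4a, a SUMO ligase of the PIAS family, and ptpn2b, a phosphatase that in mammals acts on JAKs and STATs, were higher by 0.72 (adjusted p = 0.000166) and 0.47 (adjusted p = 0.00304). The gene ptpn1, whose product PTP1B in mammals dephosphorylates JAK2 and the insulin receptor, was lower by -0.60 (adjusted p = 0.000151), sh2b3 by -0.43 (adjusted p = 0.0152) and socs2 by -0.66 (adjusted p = 0.0337). In PBS embryos ptpn1 rose by 0.75 (adjusted p = 5.36e-05), socs2 by 0.95 and ptpn11b by 0.68 over time, while pias4a changed by -0.36. Of the list 5 were called higher and 3 lower, 32.0% beside 13.6% of all genes. Of the ptpn6 IDs, ENSDARG00000089043 was called lower over time at -1.03 and the other, at -0.86, was not called (adjusted p = 0.0802). Of 3 IDs of socs7, ENSDARG00000075903 was called lower at -0.45 and the others, at -0.22 and -0.25, were not. The difference of the insulin effect between the times was 0.56 for pias4a and -0.90 for ptpn11b. For ptpn6 it was 1.73 under ENSDARG00000013916 (adjusted p = 0.0155), and 1.12 under the other ID, which was not called (adjusted p = 0.0887).

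The list of other genes known as STAT3 or STAT5 targets in mammals had 30 tested genes. It was chosen with earlier results of these data known, so its shares are no independent test. After insulin at 4 hpi 15 of the 30 were lower and none was higher, beside 14.6% of all genes called lower. The median change of the list was -0.80. In it, nfil3-5, coding for a transcription factor of the bZIP class, went from 224 to 47.2 CPM, a change of -2.25 (SE 0.18, adjusted p = 1.47e-07). The collagenase gene mmp13a went from 144 to 17.8 CPM (-3.01, SE 0.23, adjusted p = 2.23e-07) and the AP-1 gene junbb from 137 to 35.4 CPM (-1.96, SE 0.20, adjusted p = 3.00e-06). The effect of insulin differed between the times for 10 of the 30, all called lower, beside 5.76% of all genes called lower. Among them were mmp13a at -2.41, nfil3-5 at -1.57 and the survival gene bcl2l1 at -0.83. In PBS embryos the targets moved both ways over time, with 6 higher and 5 lower, or 36.7% called beside 13.6% of all genes. Higher were mmp13a by 3.12, the NF-kappaB cofactor gene bcl3 by 2.62 and the metalloproteinase inhibitor gene timp2b by 1.81. The immediate-early genes fos and junbb fell by 1.48 and 0.77, and mycb fell by 0.45. The target list shares mmp9 and mmp13a with the neutrophil markers and fga, fgb and fgg with the liver markers.

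**Figure D4:**
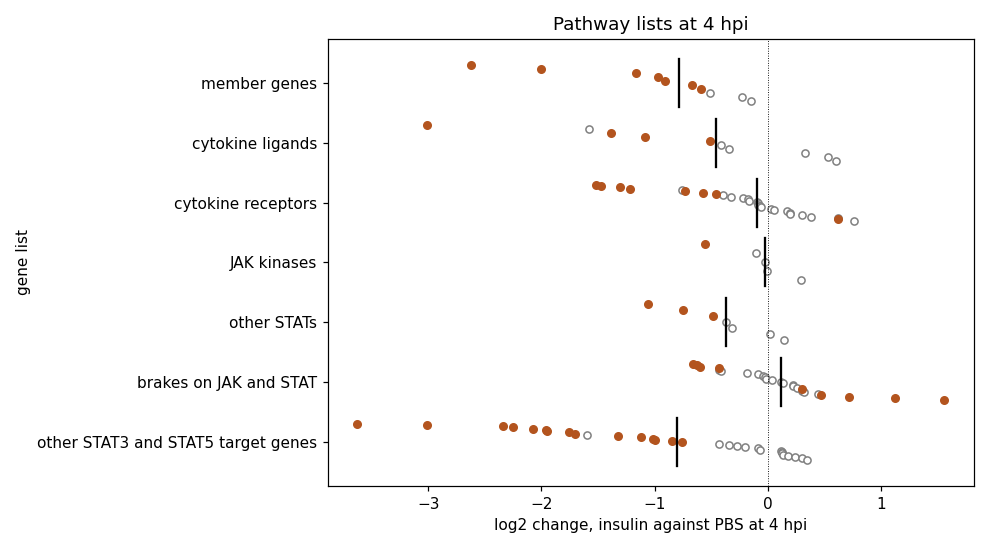
Log2 change with insulin at 4 hpi of each tested gene of the axis (top row) and of the 6 pathway lists, with filled points for an adjusted p under 0.05 and a black line at the median of each list. Among the 6 lists the line lies lowest for the STAT3 and STAT5 target genes, at -0.80, and above 0 for the inhibitors of JAK and STAT, at 0.11.

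These counts moved with the libraries in use. Without the 4 libraries that stand apart, insulin at 4 hpi gave 18 targets lower and 2 higher, 5 ligands lower and 1 higher of 11, 7 receptors lower and 5 higher, and 4 inhibitors lower and 7 higher. Of all genes, 35.2% were called in these 12 libraries at 4 hpi and 17.8% were called lower. At 0.5 hpi the same libraries gave 12 targets lower and none higher, where 12.9% of all genes were called and 6.54% were called lower. That comparison holds insulin replicates 3 and 4 and keeps the near-identical PBS pair as separate libraries. Over all 16 libraries edgeR called none of the targets at 0.5 hpi, and likewise none with the pair summed.

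For lepb, socs3a and socs3b the genes with the most similar course over the 16 libraries were taken from 19309 genes of at least 2 CPM on average, by the root mean square difference of log2 CPM after each gene was centred on its own mean. The 16 libraries share their groups, so likeness in part restates the group means. Among the 5 nearest to lepb were mmp9 (0.79), mmp13a (0.84), cxcl-c1c (0.92) and irak3 (0.95), against a spread of lepb itself of 1.93. Since lepb had few or no reads at 0.5 hpi, its log2 CPM there was set largely by the prior count of 2. Its spread and the order of its nearest genes depend on that setting. The gelatinase gene mmp9, for example, had means of 34.7 and 21.6 CPM after PBS and insulin at 0.5 hpi and of 186 and 36.5 CPM at 4 hpi.

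Among the 5 nearest to socs3a were ERRFI1 (2 of 2) (0.25), arrdc3b (0.28), sgk1 (0.29) and cebpb (0.33), against its own spread of 0.89. The kinase gene sgk1 had 192 and 118 CPM after PBS and insulin at 0.5 hpi and 223 and 71.7 CPM at 4 hpi, and cebpb had 254 and 117, then 190.1 and 45.2 CPM. In both, as in socs3a, the insulin mean was the lower one at either time. Nearest to socs3b were spen (0.20), bach1 (0.21), arl10 (0.21), epha2 (0.22) and optn (0.22), against a spread of 0.57. The gene spen had 79.1 and 72.9 CPM at 0.5 hpi and 162 and 74.7 CPM at 4 hpi after PBS and insulin, a high level in PBS at 4 hpi alone.

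Markers of cells that make or answer these cytokines were read beside the axis. The neutrophil markers summed to 315 to 406 CPM after PBS and 260 to 414 CPM after insulin at 0.5 hpi, and to 554 to 748 CPM after PBS and 457 to 557 CPM after insulin at 4 hpi. Of 10 tested, mmp9, mmp13a and ncf1 were lower after insulin at 4 hpi, and between the PBS groups the same 3 were higher and mpx was lower at 4 hpi. The difference in the sum between PBS and insulin at 4 hpi lay in mmp9 and mmp13a, which the target list also holds. Together these genes had 214 to 426 CPM after PBS and 35.3 to 72.6 CPM after insulin at 4 hpi. The other 9 neutrophil markers summed to 323 to 353 CPM after PBS and 409 to 496 CPM after insulin at 4 hpi, the opposite order, and to 255 to 357 and 222 to 391 CPM at 0.5 hpi. Macrophage markers summed to 788 to 897 CPM after PBS and 663 to 1120.3 CPM after insulin at 4 hpi, with 2 higher and 1 lower of 12. The sum of 1120.3 CPM was that of replicate 1 of insulin, which stands apart, and the other 12 libraries reached at most 897 CPM. Of the 16 liver markers 1 was higher and 1 lower, of the 16 erythroid markers 1 was lower, and of the 18 muscle markers 5 were higher and 2 lower after insulin at 4 hpi. Of the 11 neuron markers 1 was lower, of the 15 eye markers 3 were higher, and of the 12 skin markers 5 were lower in that comparison, in which 28.6% of all genes were called. Without the 4 libraries that stand apart, 9 eye markers were higher, and 7 muscle markers were higher and 3 lower, where 35.2% of all genes were called. There 5 skin markers were lower and 1 higher, 3 neutrophil markers lower and 1 higher, and 2 liver markers higher and 1 lower. Of the macrophage, erythroid and neuron markers each 2 were lower and 1 was higher. At 0.5 hpi edgeR called 1 muscle marker lower and 1 eye marker higher and no other marker. DESeq2 called 4 muscle, 3 skin and 2 liver markers lower and 2 eye markers higher, and its share of all genes is not given here. Without the 4 libraries that stand apart, edgeR called 6 skin, 5 muscle and 4 macrophage markers lower and 3 eye markers higher at 0.5 hpi. In that fit 1 muscle and 1 neuron marker were also higher, and of the liver and the erythroid markers each 1 was higher and 2 were lower. Of all genes, 12.9% were called there. No marker of any list was at 0 in all libraries of a group. The part of these marker levels in the results for the axis was not tested.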

How the data were processed

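RNA was measured in 16 libraries of pooled whole embryos. The deposited values were counts per gene, whole numbers in 1 table per library, and per the submitters' processing notes the Zv9 genome build was used. The aligner, counter, annotation release and strandedness were each not given in the sources used here. Each table ended with a line of size factors, which was left out, and 0 columns of other samples were found. Symbols and chromosomes are those of the tables, with a table of 29201 gene IDs for other names.

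All 31452 genes entered filterByExpr of edgeR, which left 21650. One quasi-likelihood model (TMM factors, glmQLFit with the robust option, glmQLFTest, 12 residual degrees of freedom) was fitted to the 16 libraries with the 4 groups as levels. Tests were two-sided and adjusted p-values (Benjamini-Hochberg, threshold 0.05) are over all genes tested, from edgeR unless another tool is named. The model was tested on simulated data that held neither the split of the libraries nor the near-identical pair, and the outcome is not reported here. Intervals are at 95%, and log2 CPM used a prior count of 2. R 4.3.3 was used with edgeR 4.0.16 and limma 3.58.1, and with DESeq2 1.42.0 for alternatives.

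The 10 genes, the lists and the tests were chosen with earlier results of these data known. Of 142 pathway symbols 122 matched, giving 129 gene IDs with 105 tested. From each pathway list up to 3 called genes per direction with the smallest p were named, and for likeness the 5 nearest genes, of which some are not reported here. Values for lepa, the JAK genes not called and the sums of markers were added after their values were seen. Same-numbered replicates deviated together little or not at all (correlations of -0.16 to 0.25), so the numbers were not used as pairs. The correlation of 0.25 was between replicate 1 of PBS and replicate 1 of insulin at 0.5 hpi, both of which stand apart. Alternatives were other size factors, filters and tools, a replicate block, each library left out, and, chosen after seeing the data, the split, the summed pair and the lanes named in the headers. No sequences are printed, since none came with the tables used.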

Additional observations from a re-analysis of the deposited data

Results flagged for a closer look

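In 3 of 40 sets of 4 libraries (10 genes in 4 groups), 1 library lay far from the other 3 by Dixon's test, which flags about 1 in 20 sets by chance. For lepb after insulin at 0.5 hpi, replicate 3 had 0.117 CPM, a single read, where the others had none. With the others at 0 any read is flagged, so the rate of 1 in 20 does not apply to this set. For socs3b after insulin at 0.5 hpi, replicate 2 had 28.8 CPM and the nearest library 33.8 CPM. For cish after insulin at 4 hpi, replicate 1, a library that stands apart, had 50.4 CPM and the nearest 23.5 CPM.

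The effect of insulin differed between 0.5 and 4 hpi by the interaction contrast of edgeR for il6st, by -1.06 (adjusted p = 0.0331), and for socs3b, by -0.95 (adjusted p = 0.0149). Neither difference was called without the 4 libraries that stand apart. That of il6st was also not called with the near-identical pair summed, and was called in 6 of the 16 fits that left out 1 library.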

How the results depend on the processing

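The count of 7 genes lower at 4 hpi was 9 in the 12 libraries and with the split as a term, 6 with the filter of 10 CPM, which removed lepb, and 7 in the other alternatives except 1. The exception was the fit of the libraries whose header names no lane. At 4 hpi it held a lone library per group (PBS replicate 1 and insulin replicate 2), so no count is read from it. Leaving out 1 library always gave 7. At 0.5 hpi the count of 2 became 1 with library totals, 0 with only the groups compared, 4 in the 12 libraries, 0 with the pair summed and 0 in the libraries with no lane, and leaving out 1 library gave 0 to 2. With an unadjusted p under 0.05 each of the counts of 0 was 2 or 3. The shares of all genes by the unadjusted p are not given here, so these counts stand without a comparison. Except for the 12 libraries, the shares of all genes called in the alternatives are not given either. The DESeq2 Wald test gave 2. For the difference between times the count of 2 became 1 in the 12 libraries and 1 with the pair summed, and leaving out 1 library gave 1 to 3. In the 12 libraries the called gene was cish, and neither il6st nor socs3b was called there. For PBS over time leaving out 1 library gave 4 to 5 in place of 5, and with no lane the lone PBS library at 4 hpi allows no count. The replicate block, with numbers that do not pair the libraries, left the 4 counts at 2, 7, 2 and 5, and 1, 2 and 2 of 8 libraries correlated best with their own number in the comparisons at 0.5 hpi, at 4 hpi and within PBS.

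No called change reversed. Of changes not called, il6st at 0.5 hpi was -0.17 with no lane and cish at 4 hpi was 0.063 in lane 5 alone. In the difference between times, lepb was -0.012 with library totals, -0.040 with the split as a term and -1.71 with no lane. For stat3 it was -0.085 with library totals, -0.0015 with the replicate block and -0.0031 with the split. In the 12 libraries it was 0.063 for pim1 and 0.18 for pim2. Over time in PBS, pim2 was -0.024 in the 12 libraries, cish 0.068 with the split and pim1 0.050 with no lane. Leaving out 1 library gave ranges through 0 for lepr (-0.14 to 0.077) and il6st (-0.052 to 0.39) at 0.5 hpi and for pim2 over time (-0.025 to 0.21). In the difference they were -0.81 to 1.65 for lepb, -0.091 to 0.15 for stat3, -0.15 to 0.43 for socs1a, -0.076 to 0.56 for cish and -0.15 to 0.084 for pim2. The cause was not tested. Library totals moved the median of all genes by -0.11 in the difference, and the share of higher among all calls from 42.9% to 71.6% at 0.5 hpi, 49.0% to 38.8% at 4 hpi, 39.98% to 22.8% in the difference and 58.5% to 75.3% over time. The few reads of lepb at 0.5 hpi limit what can be said of it there.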
